A study of Mus musculus with 36 samples.

Results

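The locus described here is the pair of cardiac myosin heavy chain genes Myh6 and Myh7 on mouse chromosome 14, in open chromatin of cardiomyocyte nuclei after myocardial infarction. Its members are all regions of the 9 deposited lists that overlap 55.50 to 55.65 Mb of chromosome 14 in mm9. They number 57 of 122759 listed regions, with 25 on day 4, 12 on day 7 and 20 on day 14. No mm9 annotation was used, so the genes are bounded by approximate positions, 55.560 to 55.585 Mb for Myh6 and 55.588 to 55.613 Mb for Myh7. A region was assigned to the part that holds its midpoint, which gave 20 regions in each gene, 8 below Myh6, 9 above Myh7 and 0 in the stretch between the genes.

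ATAC-seq, in which a transposase tags accessible DNA, was run on FVB/N left ventricular nuclei from sham-operated mice and from the border zone of infarcted mice on days 4, 7 and 14 after surgery. There was 1 library per condition and day, 6 in all. Day 4 nuclei of either condition came from mice with a Cdh5-Cre driver, which is active in endothelium, and a Sun1-sfGFP reporter. They were sorted and then pulled down through PCM1, a protein around cardiomyocyte nuclei, and the labels name no tamoxifen for them. Day 7 and day 14 nuclei of either condition came from tamoxifen-treated (20 mg/kg) mice with the tamoxifen-inducible, cardiomyocyte-driven Myh6-MerCreMer and the nTnG reporter, a line labelled Myh6-MerCrMer;nTnG, and were sorted by GFP to 50000 per sample. The protocol of these days also names the Sun1/sfGFP reporter allele. The Myh6-MerCreMer transgene itself carries promoter sequence of Myh6, so tags from its copies would align to this locus on days 7 and 14. Mouse line, nuclei isolation and aligner change together between day 4 and the later days and cannot be told apart from the day.

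Myh6 encodes the alpha myosin heavy chain, the fast motor of the sarcomere that prevails in the adult mouse ventricle. Myh7 encodes the slower beta form, which prevails in the fetal ventricle and is known to be expressed again in stressed adult rodent hearts. The genes lie one behind the other on the same strand, with Myh7 first, and each holds an intronic microRNA, Mir208a in Myh6 and Mir208b in Myh7. The antisense noncoding RNA Mhrt starts between them and overlaps the end of Myh7. Cmtm5 overlaps the end of Myh6, and Ngdn is the next protein-coding gene beyond the start of Myh7, by RefSeq gene order in GRCm38.p6.

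The promoters are shown because, as described below, the upstream limits of both genes fall into stretches without a listed region. Sequences are from RefSeq (GRCm38.p6), 300 bases around each start on the minus strand, and capitals mark matches on either strand to TATAAA and to CATTCC, the core of the MCAT element bound by TEAD factors. Myh6 lies at chr14:54966558-54966857, and of the 2 Myh7 starts in the table the one at chr14:54994577-54994876 is printed.
Myh6: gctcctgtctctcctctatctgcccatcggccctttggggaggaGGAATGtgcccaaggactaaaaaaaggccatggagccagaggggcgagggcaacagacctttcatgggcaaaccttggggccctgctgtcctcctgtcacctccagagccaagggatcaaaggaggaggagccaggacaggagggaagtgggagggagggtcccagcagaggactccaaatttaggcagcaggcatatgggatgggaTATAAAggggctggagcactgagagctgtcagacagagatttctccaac
Myh7: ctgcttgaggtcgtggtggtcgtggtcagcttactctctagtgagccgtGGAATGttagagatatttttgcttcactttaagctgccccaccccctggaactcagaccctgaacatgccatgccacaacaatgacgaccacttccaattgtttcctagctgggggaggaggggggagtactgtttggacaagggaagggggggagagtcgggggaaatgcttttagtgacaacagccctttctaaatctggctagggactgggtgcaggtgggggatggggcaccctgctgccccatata
Each printed promoter holds 1 match to CATTCC, found in 14.7% of 32851 promoters of this length, and Myh6 holds 1 match to TATAAA, found in 13.6%. The other Myh7 start has no match to CATTCC in its window. The AP-1 element TGANTCA had no match in any of the 3 windows and one in 7.81% of all promoters. The same held for GATAAG, an element of cardiac zinc finger factors, which 7.44% of all promoters hold.

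The microRNAs are shown because they are read from inside the gene bodies whose accessibility is compared. Their mature 3p forms, with the seed (bases 2 to 8) in capitals, share that seed and differ at 3 of 22 bases.
mmu-miR-208a-3p: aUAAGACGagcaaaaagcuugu
mmu-miR-208b-3p: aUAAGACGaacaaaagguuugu

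Whole tags in the listed regions of a library ranged from 2743782 to 13936013, which is part of each library and not its depth. Folds below are of whole tags, border zone to sham, scaled within a day by TMM over the 19733 loci listed on all 3 days. Their intervals are exact Clopper-Pearson 95% intervals and those of levels exact Poisson 95% intervals, and all cover counting error only. Levels are in CPM per kb, that is tags per kb for every 1000000 TMM-scaled tags that the library has in the loci listed on all 3 days. Under this scaling the median listed region had a log2 fold of 0.08 on day 4, 0.21 on day 7 and 0.15 on day 14. It lies 0.17, 0.35 and 0.13 higher on the log2 scale than with the values as deposited, so TMM folds are closer to 1 where the border zone is lower. The deposited values of day 4 mix scaled border zone values of differential regions with unscaled counts of unchanged ones. With 1 library per condition and day, differences within a day were not tested.

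The Myh6 gene body held some of the densest listed regions of the genome, and it had fewer tags in the border zone than in sham on both days on which it was listed. On day 4 its 8 regions held 7487 sham and 3985 border zone tags over 17.5 kb. The level was 95.9 CPM per kb in sham (93.7 to 98.1) and 57.3 in the border zone (55.6 to 59.2), a fold of 0.598 (0.576 to 0.622). On day 14 its 12 regions held 24260 sham and 11096 border zone tags over 21.0 kb, at 107.8 (106.5 to 109.2) and 73.2 CPM per kb (71.9 to 74.6), a fold of 0.679 (0.664 to 0.695). Every one of these 20 regions was lower in the border zone, with an interval below 1. No region of the gene was listed on day 7, where the lists hold nothing from 55543751 to 55590250, so day 7 has no value for Myh6.

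**Figure D1:**
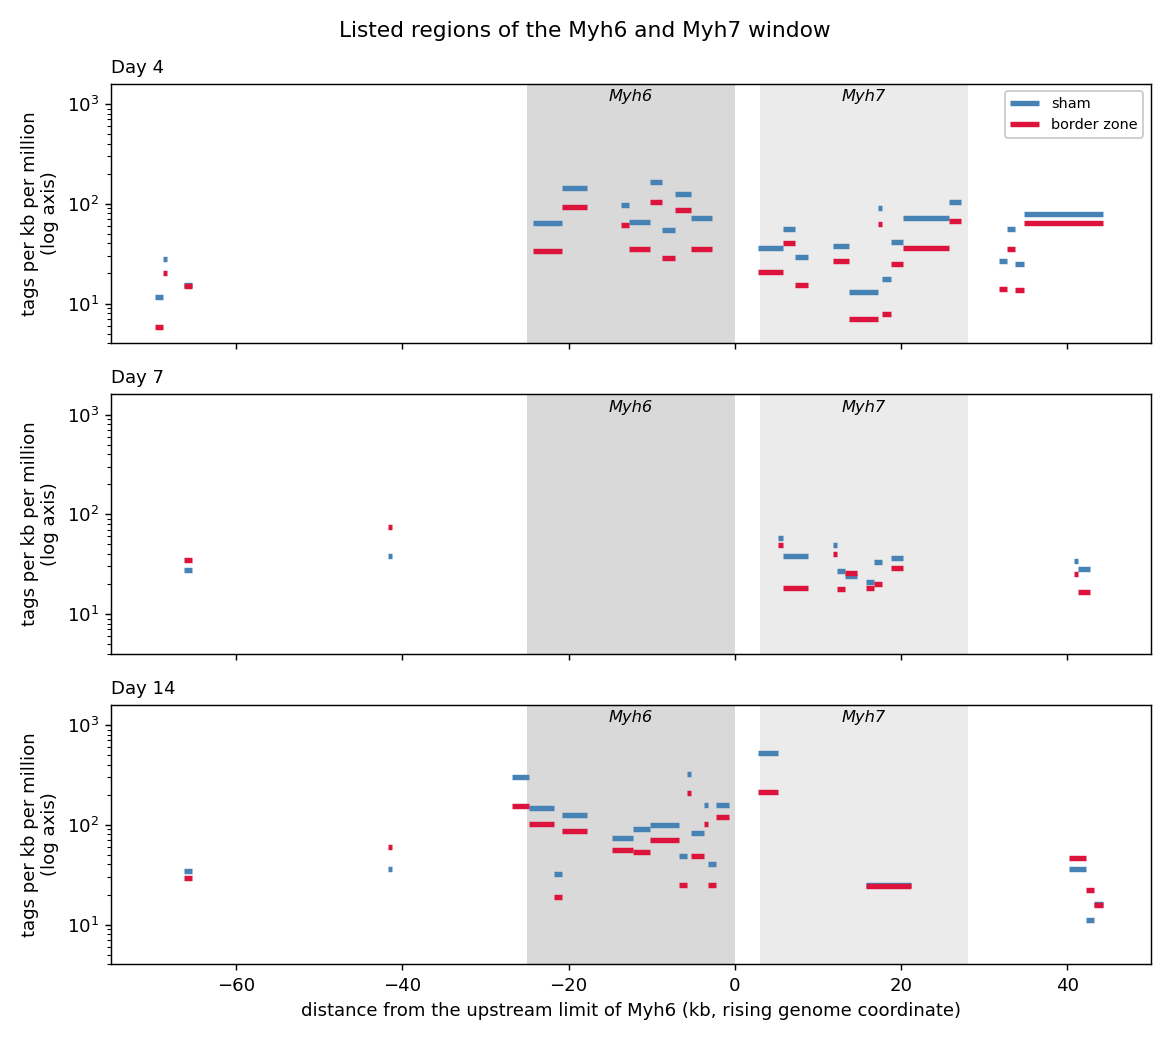
Level of each listed region (horizontal bars, as long as the region) in CPM per kb on a log axis, for sham and border zone, against the distance in kb from 55.585 Mb, the upstream limit of Myh6. Grey bands are the approximate gene bounds. In Myh6 the sham bars lie above the border zone bars on days 4 and 14, and on day 7 the band holds no region.

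All listed Myh6 regions were lower in the border zone, and the stretches of the gene between them have no value. Region folds ran from 0.483 to 0.680 on day 4 and from 0.509 to 0.758 on day 14, with median log2 folds of -0.78 and -0.63. The 10th percentile of all listed regions was -0.52 and -0.55 on these days. The densest Myh6 region of day 4, at 55574751 to 55576250 inside the gene body, had 1098 sham and 627 border zone tags and ranked 9th of 46827 regions in sham tags per kb. Its border zone level was 105.3 CPM per kb against 164.0 in sham, a fold of 0.642 (0.581 to 0.709). The region with the most tags that day, 55564251 to 55567250, had 1928 and 1101 tags and a fold of 0.642 (0.596 to 0.692). The next by tags, 55577751 to 55579750, had 1127 and 682 tags and the fold closest to 1 of the day in Myh6, 0.680 (0.618 to 0.749). On day 14 the same 3 kb had 4010 sham and 1860 border zone tags, a fold of 0.689 (0.652 to 0.728). The most tags of day 14 lay at 55560251 to 55563250, near the end of the gene, with 4785 and 2220 tags and a fold of 0.689 (0.655 to 0.725). The densest Myh6 region of day 14, 500 bp from 55579251, had 1744 sham and 753 border zone tags, ranked 8th of 40980 and had a fold of 0.641 (0.588 to 0.699).

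The deposited lists called 4 of the 8 Myh6 regions sham-higher on day 4 and 5 of the 12 on day 14, where 7.37% and 6.75% of all listed regions were. None was in a border zone-higher list. The called regions alternated with uncalled ones along the gene. Regions of a day that abut were always in different lists in this window. How the regions were cut was not given in the sources used here, so the alternation cannot be told apart from the cutting. Counts of called regions, here and below, are therefore not counts of independent regions. On day 4 they were the regions from 55560751, 55572251, 55576251 and 55579751, with 998, 724, 368 and 810 sham tags against 466, 347, 171 and 348 border zone tags. The last of them, near the upstream limit of the gene, had the lowest fold of the day in Myh6, 0.483 (0.425 to 0.548). On day 14 the calls were the regions from 55563251, 55572751, 55578251, 55579751 and 55581751, with 343, 1934, 525, 1343 and 434 sham tags against 135, 767, 180, 532 and 180 border zone tags. The lowest fold among these was 0.509 (0.428 to 0.604), at 55578251 to 55579250. The uncalled regions of the gene had folds of 0.629 to 0.680 on day 4 and 0.641 to 0.758 on day 14. Every region of the differential lists had a deposited fold, in either direction, of at least 1.7502 on day 4 and 1.7501 on day 14. The lower folds of called regions therefore follow at least in part from the listing. On day 4 unchanged regions were deposited with unscaled border zone counts, so their deposited folds are not on the scale of the called regions. Some uncalled Myh6 regions of day 4 lay above the bound as deposited, the highest at 1.79. A call by these lists is placement in a differential list, and differences within a day were not tested.

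**Figure D2:**
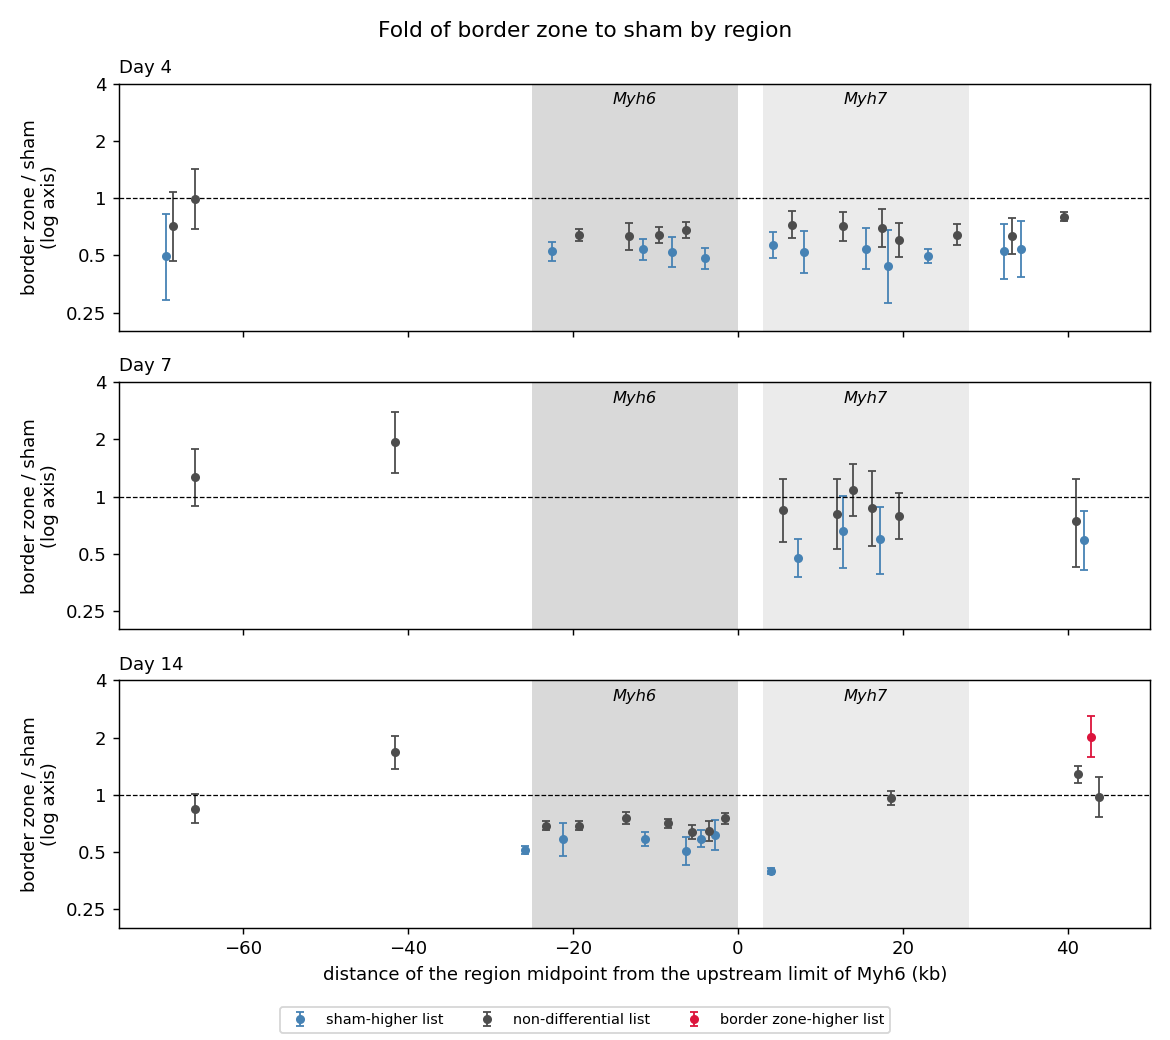
Fold of border zone to sham per region (points, log axis) with exact 95% intervals of counting error (bars), by distance of the region midpoint from the upstream limit of Myh6 and coloured by deposited list. All 20 Myh6 points lie below 1, and so do all Myh7 points of day 4, whereas the Myh7 body point of day 14 lies at 0.962.

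The region that begins the Myh7 part, at the junction of the genes, stood apart on day 14. It was listed at 55587751 to 55590250 on that day with 14181 sham and 3814 border zone tags in 2.5 kb, a level of 529.5 CPM per kb in sham (520.8 to 538.3) and 211.5 in the border zone (204.8 to 218.3). This was the 3rd highest density of 40980 regions in sham and the 48th in the border zone. Its fold of 0.399 (0.385 to 0.414) was the lowest of any region of the window on that day. On day 4 the region from the same start, 3 kb long, had 483 sham and 245 border zone tags, levels of 36.1 (32.9 to 39.4) and 20.6 CPM per kb (18.1 to 23.3), and a fold of 0.570 (0.487 to 0.666). On day 7 only its last 500 bp were listed, from 55590251, with 87 sham and 43 border zone tags and a fold of 0.849 (0.575 to 1.24).

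The day 14 level of the junction region was 14.7 times that of day 4 in sham and 10.3 times in the border zone, whereas that of the Myh6 body was 1.12 and 1.28 times. Within a library, where scaling plays no part, its tags per kb were 0.376 of those of the Myh6 body in day 4 sham and 0.359 in day 4 border zone. They were 4.91 and 2.89 times the Myh6 body on day 14. The junction region thus held 29.5% of the sham tags of the window on day 14 and 2.99% on day 4. Another dense region of day 14, at 55558251 to 55560250 just below the Myh6 bound, had 6509 sham and 2240 border zone tags, a fold of 0.511 (0.487 to 0.536) and rank 15 in sham density, and it was not listed on the other days. Tags of the native promoter region and of the transgene cannot be told apart in these lists.

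**Figure D3:**
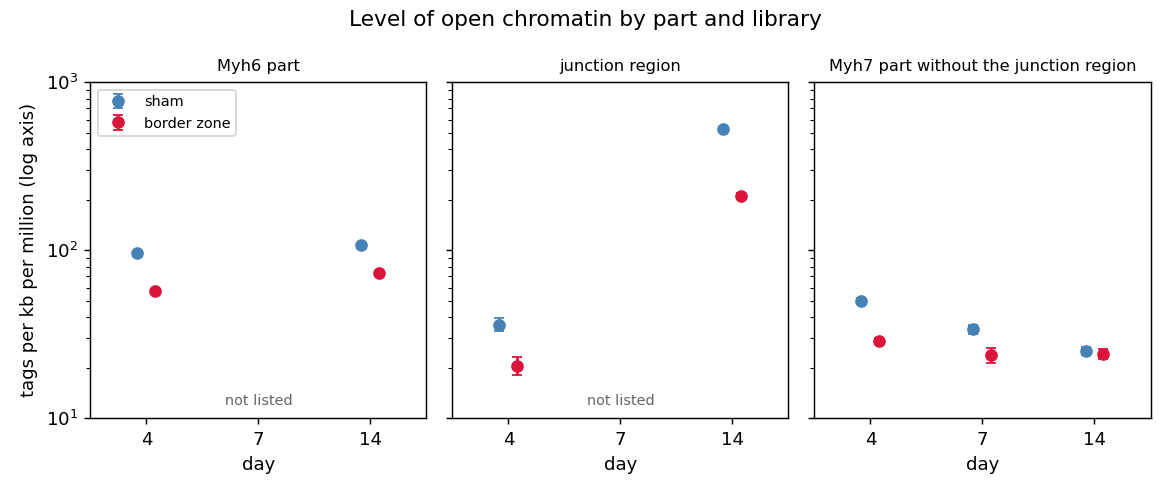
Level in CPM per kb (log axis) of the Myh6 part, the junction region and the rest of the Myh7 part in each of the 6 libraries, with exact Poisson 95% intervals, the 500 bp listed on day 7 being counted with the rest of Myh7. The junction region goes from 36.1 to 529.5 in sham between days 4 and 14 while the Myh6 part goes from 95.9 to 107.8.

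Myh7, without the junction region, was less dense in tags per kb than Myh6 in every library that listed both, and it too was lower in the border zone on days 4 and 7. On day 4 its other 9 regions held 4139 sham and 2126 border zone tags over 18.5 kb, levels of 50.1 (48.6 to 51.7) and 28.9 CPM per kb (27.7 to 30.2), and a fold of 0.577 (0.548 to 0.608). The densest was 55610751 to 55612250, toward the upstream end of the gene, with 700 and 400 tags, rank 70 in sham and a fold of 0.642 (0.567 to 0.727). Beside it, 55605251 to 55610750 held the most tags of the part, 1776 in sham and 781 in the border zone, and had a fold of 0.494 (0.454 to 0.538). All 10 Myh7 regions of day 4, the junction region included, lay below 1 with their intervals, and 5 of them were in the sham-higher list, where 7.37% of all listed regions of day 4 were. Besides the junction region and the one from 55605251, these were the regions from 55592251, 55598751 and 55602751, with 198, 203 and 79 sham tags against 92, 98 and 31 border zone tags. The deposited border zone value from 55602751, 34.1, lay under the 35 that every listed region of day 4 reached in at least 1 condition. That region was listed through sham alone, so its fold below 1 rests in part on the listing.

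On day 7 the 8 Myh7 regions held 1025 sham and 416 border zone tags over 10 kb, levels of 34.0 (31.9 to 36.1) and 23.7 CPM per kb (21.5 to 26.1), and a fold of 0.697 (0.620 to 0.782). Of these, 7 were below 1, and 2 had an interval below 1. The lowest was 55590751 to 55593750, next to the junction region, with 346 sham and 96 border zone tags and a fold of 0.476 (0.376 to 0.599). Without it the fold of the part was 0.809. The region next by tags, 55603751 to 55605250, had 165 and 76 tags and a fold of 0.791 (0.595 to 1.04). The regions from 55596751, 55597251, 55600751 and 55601751 had 74, 81, 63 and 101 sham tags. Their deposited border zone values of 47.1, 41.8, 43.1 and 47.1 lay under the 50 that every listed region of day 7 reached in at least 1 condition. These were listed through sham alone, so their folds below 1 and the fold of the part rest in part on the listing. The lists called 3 of the 8 sham-higher, the region from 55590751 and those from 55597251 (81 and 31 tags) and 55601751 (101 and 35 tags), where 22.0% of all regions of day 7 were.

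On day 14 a single region of Myh7 was listed beside the junction region, the 5.5 kb from 55600751 to 55606250 in the middle of the gene. It held 1480 sham and 959 border zone tags, 25.1 (23.9 to 26.4) and 24.2 CPM per kb (22.7 to 25.8), and its fold of 0.962 (0.886 to 1.04) did not differ from 1 beyond counting error. With the border zone value as deposited the fold was 0.888 (0.818 to 0.964), so whether it lies below 1 depends on the scaling. No Myh7 region was in a border zone-higher list on any day, 0 of 20, where 12.2%, 17.5% and 13.4% of all listed regions were on days 4, 7 and 14.

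In order of level, Myh6 was highest in day 14 sham, then day 4 sham, day 14 border zone and day 4 border zone, and the intervals of these neighbours did not overlap. Those intervals cover counting error only, and the Myh6 levels cover 17.5 kb on day 4 and 21.0 kb on day 14. Mouse line, isolation and aligner also change between these days. For Myh7 without the junction region the order was day 4 sham, day 7 sham, day 4 border zone, day 14 sham, day 14 border zone and day 7 border zone. The counting intervals of the last 3 overlapped. Different stretches of Myh7 were listed on each day, and 3.5 kb of the Myh7 part were listed on all 3 days, so this order compares unequal parts of the gene. Tags per kb of Myh6 were 1.91 times those of Myh7 in day 4 sham and 1.98 times in day 4 border zone, and 4.29 and 3.03 times on day 14.

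The comparison of Myh6 with Myh7 asked whether the difference between conditions was the same in both genes. Both come from the same libraries, so scaling cancels. On day 4 the log2 fold of Myh6 was 0.05 above that of the Myh7 part (-0.04 to 0.14), a difference within counting error. On day 14 it was 0.59 above (0.53 to 0.64), since the junction region holds most tags of the Myh7 part. Without the junction region the day 14 difference turned, and Myh6 was 0.50 below Myh7 (log2 difference -0.50, interval -0.63 to -0.38), which rests on the single Myh7 body region. The day 4 difference remained 0.05 (-0.04 to 0.15). Over both days the mean log2 difference was 0.32 with the junction region (exact sign-flip permutation test, two-sided, p = 0.5) and -0.23 without it (p = 1.0), and with 2 days the smallest p possible is 0.5.

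The conditions were then tested over days with edgeR's quasi-likelihood test, with the day as a block and Benjamini-Hochberg adjustment over all loci. A locus joins regions of different days that overlap, directly or through a region of another day. Of the 4 loci of the window listed on all 3 days, 1 was called at an adjusted p below 0.05, the junction locus at 55587751 to 55590750. It fell in the border zone by 0.89 on the log2 scale (SE 0.21, adjusted p = 0.00762). Its listed regions were lower in 3 of 3 days, but the day 7 interval included 1 (fold 0.849, 0.575 to 1.24). On this test 2.31% of 19733 loci were called sham-higher and 7.67% border zone-higher. Without day 14 its log2 fold was -0.57 and it was not called. Its day 7 value rests on 500 bp that share no base with its day 14 region, both being joined through the day 4 region. The Myh7 body locus, 55596751 to 55610750, had a log2 fold of -0.42 (SE 0.19, adjusted p = 0.149 in edgeR) and did not pass. The loci below Myh6 (55518751 to 55519750) and above Myh7 (55619751 to 55629250) had log2 folds of 0.00 and -0.15 and did not pass either.

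Since Myh6 had no day 7 value, the same test was run on the 25726 loci listed on days 4 and 14, a choice made after seeing the data. All 5 Myh6 loci fell in the border zone, on a test that called 0.408% of all loci sham-higher and 3.23% border zone-higher. By edgeR, the log2 folds from the end of the gene to its upstream limit were -0.73 (SE 0.18, adjusted p = 0.0131) at 55560251 to 55564250 and -0.58 (SE 0.17, adjusted p = 0.0452) at 55564251 to 55567250. They were -0.68 (SE 0.17, adjusted p = 0.0192) at 55570251 to 55574750, -0.60 (SE 0.17, adjusted p = 0.0368) at 55574751 to 55579750 and -0.87 (SE 0.18, adjusted p = 0.00354) at 55579751 to 55582750. The junction locus had -1.08 (SE 0.18, adjusted p = 0.000545 in edgeR), and the Myh7 body locus -0.46 (SE 0.19, adjusted p = 0.185) did not pass. With DESeq2, which called 0.00777% of loci sham-higher and 0.292% border zone-higher, 0 of the 5 Myh6 loci passed (adjusted p 0.0682 to 0.307), all 5 with an unadjusted p below 0.05, and the junction locus passed with an adjusted p of 0.00168. This fit has 1 residual degree of freedom, and whether Myh6 and Myh7 loci differ from each other was not tested in it.

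**Figure D4:**
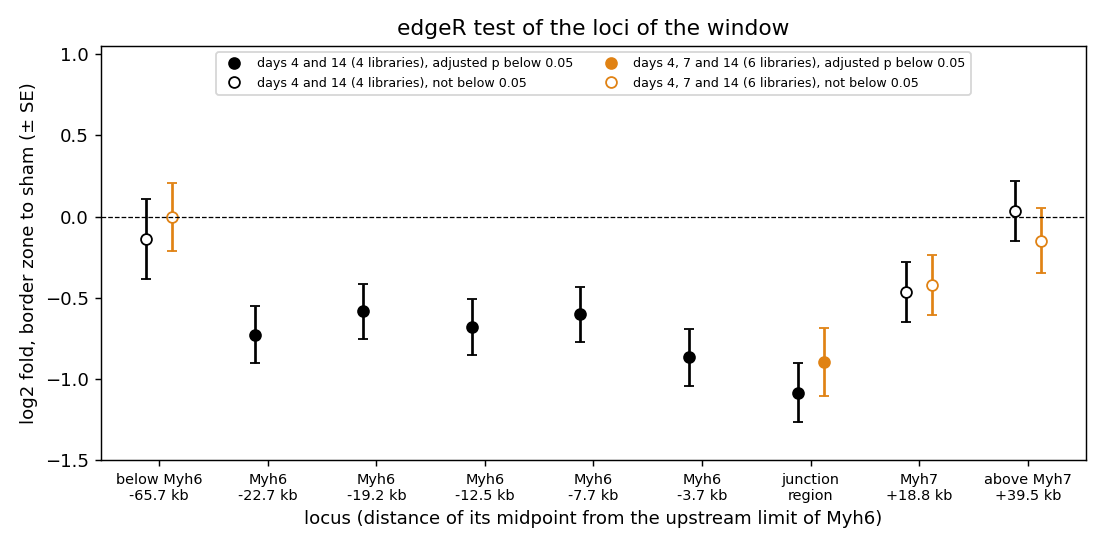
Log2 fold of border zone to sham with its SE for the loci of the window in edgeR's quasi-likelihood test, over days 4 and 14 and over all 3 days, ordered along the chromosome. The 5 Myh6 loci and the junction locus lie between -0.58 and -1.08 and are filled (adjusted p below 0.05), while the Myh7 body locus and the flanking loci are open.

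Outside the genes all 7 listed regions of day 4 were below 1, whereas those of days 7 and 14 lay on either side of 1. On day 4 the intervals of the regions from 55516251 (0.714, 0.468 to 1.08) and 55518751 (0.992, 0.689 to 1.42) included 1. On day 4 the regions from 55515251 below Myh6 (52 sham and 23 border zone tags, fold 0.497) and from 55616751 (119 and 56 tags, 0.529) and 55618751 (112 and 54 tags, 0.542) above Myh7 were in the sham-higher list. The region from 55617751 between the latter had 247 and 139 tags and a fold of 0.633, and was not called. The deposited border zone value from 55515251, 23.8, lay under the 35 that every listed region of day 4 reached in at least 1 condition. That region was listed through sham alone, so its fold below 1 rests in part on the listing. Above Myh7 the 9.5 kb region from 55619751 to 55629250 had 3378 sham and 2405 border zone tags on day 4, a fold of 0.800 (0.759 to 0.843). Inside it, day 14 listed 55627251 to 55628250 as border zone-higher, with 118 and 161 tags and a fold of 2.03 (1.59 to 2.59), the 1 border zone-higher region of the window in any list. Its sham tags lay under the 150 that every listed region of day 14 reached in at least 1 condition. It was listed through the border zone alone, so its fold rests in part on the listing. A region of 500 bp below Myh6, from 55543251, was higher in the border zone on both later days, with 58 and 65 tags on day 7 (fold 1.92, 1.33 to 2.79) and 191 and 215 on day 14 (1.67, 1.37 to 2.04). It was listed as unchanged on both of these days, with deposited folds of 1.51 and 1.54, and was not listed on day 4. The other flanking regions with the most tags had 776 and 670 tags (55625251 to 55627250, day 14, fold 1.28) and 370 and 211 tags (55518751 to 55519750, day 14, fold 0.847, interval 0.712 to 1.01). Over the whole window 12 of 25 regions were in the sham-higher list on day 4, 4 of 12 on day 7 and 7 of 20 on day 14, where 7.37%, 22.0% and 6.75% of all listed regions were.

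The upstream limits of both genes, where the promoters printed above would lie, were covered by no listed region on any day. The stretches without a region around the Myh6 limit ran from 55582251 to 55587750 on day 4 and from 55584251 to 55587750 on day 14. Around the Myh7 limit they ran from 55612251 to 55616750, from 55605251 to 55625750 and from 55606251 to 55625250 on days 4, 7 and 14. A stretch without a listed region has no measured value here, so neither promoter can be compared between conditions. Dense listed regions adjoin the gap at Myh6, among them 55582751 to 55584250 on day 14 with 2559 sham and 1298 border zone tags and a fold of 0.753 (0.704 to 0.806).

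The exons of Myh6 and Myh7 are closely similar in sequence, and the sources used here do not say how reads that align to both genes were placed. The openness of Myh6, a gene that marks cardiomyocytes, was the check made of the labelled cell type, and it could be made on days 4 and 14 but not on day 7, where no Myh6 region was listed. Regions of other cell types' markers were not analysed here for want of an mm9 annotation, and fewer cardiomyocyte nuclei and less open chromatin per nucleus cannot be told apart in bulk libraries.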

How the data were processed

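The 6 ATAC-seq libraries were grouped by their titles, and the 30 RNA-seq samples were not analysed here. The submitters' processing notes name mm9 and bedtools for all libraries, Bowtie2 for day 4 and BWA for days 7 and 14. How regions were called and duplicates handled was not given in the sources used here. Sham tags were deposited as counts. Border zone tags were deposited as a signal that the authors had scaled, but those of day 4 regions listed as unchanged were deposited as unscaled counts. Dividing by the day's scaling factors returned whole tags: 97.6% of 85106 scaled values needed a single factor (tolerance 0.001%), 2001 a sum of factors, and 1 was approximate. For folds, border zone tags were multiplied by 1.12, 1.72 and 1.49 on days 4, 7 and 14 (TMM, edgeR 4.0.16, loci listed on all days). Regions of different days that overlapped, directly or through a region of another day, formed a locus. Loci were tested with edgeR's quasi-likelihood test with day as a block, because the libraries of a day share isolation and aligner. This leaves 2 residual degrees of freedom. DESeq2 1.42.0 was an alternative, and the edgeR test over 3 days, though not the one over days 4 and 14, was checked on simulated data. The labels do not say whether libraries came from separate animals, so p-values describe only how these libraries varied. Named are the regions of both genes in differential lists, those with the most tags of each part and day, and all tested loci of the window. The densest regions were also named, after their values were seen. A search for loci with a like pattern over 3 days could not be made, since Myh6 was not listed on day 7, and the sign-flip test planned over 3 days ran over 2. The locus, its parts and the tests were chosen with earlier results of these data known. Coordinates are mm9, counted from 1, except those of the RefSeq sequences.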

Additional observations from a re-analysis of the deposited data

Results flagged for a closer look

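A place above Myh7 was listed in opposite directions on 2 days. The region at 55627251 to 55628250 of chromosome 14 was border zone-higher on day 14 with a fold of 2.03, from 118 sham and 161 border zone tags. Its sham tags lay under the 150 that every listed region of day 14 reached in at least 1 condition. It was listed through the border zone alone, so its fold and direction rest in part on the listing. The overlapping region 55626251 to 55627750 was sham-higher on day 7, with 128 sham and 44 border zone tags and a fold of 0.590 (0.409 to 0.837). The regions share 500 bp, there is 1 library per condition and day, and the difference between the days was not tested.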

How the results depend on the processing

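Folds of border zone to sham were lower with border zone values as deposited, at 0.550 and 0.627 for Myh6 (days 4 and 14). They were 0.539, 0.547 and 0.418 for Myh7 and 0.582, 0.609 and 0.555 for the window (days 4, 7 and 14). Those of day 4 mix scaled values of differential regions with unscaled counts of unchanged ones, so they are not a single scaling. With 1 factor per day from summed tags the folds were 0.575 and 0.617 for Myh6 and 0.571 and 0.411 for Myh7 (days 7 and 14). For the window they were 0.611, 0.636 and 0.547. Without the region with the most tags, Myh7 was at 0.628, 0.809 and 0.962 and the window at 0.592, 0.880 and 0.687, and the log2 difference of Myh6 and Myh7 turned to -0.11 on day 4 and -0.51 on day 14. In alternatives chosen after seeing the data, leaving out the junction region gave 0.962 for Myh7 and a difference of -0.50 on day 14, and counting it with Myh6 gave 0.576 for Myh6 and a difference of -0.74. Leaving out a day in turn, the mean difference was 0.053 to 0.59. Differential regions of the window with a deposited fold of at least 2 numbered 4 on day 4 and 3 on day 14. The share of all listed regions at that fold was not worked out, so these counts have no comparison.

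Of the window loci, 1 was called over 3 days by edgeR and by DESeq2. Of all 19733 loci, edgeR called 455 sham-higher and 1513 border zone-higher, and DESeq2 115 and 1023. With at least 100 tags per library the 1 window locus tested was the Myh7 body locus, which was not called, as in the main test. The junction locus did not pass that filter and was not tested there. Without a day in turn 0 to 1 loci of the window were called, and 21 to 2134 of all 19733 loci were called sham-higher. Over days 4 and 14 (added) 6 were called, 6 also without TMM. Of all 25726 loci, edgeR called 105 sham-higher and 832 border zone-higher over these days, and 52 and 476 without TMM. The fit without the replicate block called 0 of all loci, both over 3 days and over days 4 and 14. Over 3 days, 0 loci of the window and 584 of all loci had an unadjusted p below 0.05 in it. The locus from 55518751 turned to 0.035 with DESeq2 and 0.021 with no replicate block, and leaving out a day in turn it was -0.12 to 0.17. The locus from 55619751 was -0.47 to 0.051 without a day in turn and, over days 4 and 14 with no replicate block, turned to -0.22. Neither passed. The cause of these shifts was not tested. Joining loci only at an overlap of 500 bp and moving the stretch between the genes changed no value.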
